A study of Mus musculus with 21 samples.

Results

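The genes described here are 10 markers of smooth muscle, myofibroblasts and pericytes, read as rows of the count table by symbol in all 5 RNA libraries of the series. They are Acta2, Tagln, Cnn1, Myh11, Myl9, Rgs5, Pdgfrb, Cspg4, Notch3 and Mcam, 10 of 55341 genes in the table, and 9 of the 10 (all but Myh11) passed the filter on low counts and were tested. FAPs, the fibro-adipogenic progenitors of muscle, are stromal cells that divide after damage and can become fibroblasts or fat cells. The Prdm16 group (2 RNA libraries) came from mice of genotype Prdm16Flox/Flox with 1 Pdgfrα Cre-ERT allele, a tamoxifen-inducible Cre, so that recombination is directed to cells that express Pdgfra. The WT group (3 RNA libraries) came from Prdm16Flox/Flox mice with Pdgfrα+/+, which carry the floxed alleles but no Cre. Adult mice of both groups received tamoxifen on 5 consecutive days and cardiotoxin into muscle 7 days later. FAPs were sorted 5 days after injury and grown on coated dishes for 4 to 5 days before RNA was taken, so all values are those of cultured cells. Domains of H3K9me2, a histone mark of silent chromatin, were deposited for 3 libraries per genotype, and domains bound by LaminB1, at the nuclear edge, for 1 per genotype. Separate mice are not named for the replicates, so each p-value is set against a spread among libraries that may be technical in part.

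Contractile smooth muscle cells, pericytes (the cells that wrap capillaries) and myofibroblasts (activated fibroblasts that pull on matrix) share part of one gene programme. Its contractile part is driven by serum response factor (SRF), which binds CArG boxes with the cofactors myocardin or MRTF, and by transforming growth factor beta. Its pericyte part includes the receptors for platelet-derived growth factor and Notch signals that hold mural cells to vessels. Cultured mesenchymal cells of muscle are known to take up smooth muscle actin as they become myofibroblasts, and Pdgfrb and Cspg4 are also found on FAPs and other fibroblasts, so no single member defines a cell type.

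The 5 libraries held 5839587 to 10657791 counts. Some labels are in doubt. The authors' deposited table of Prdm16 over WT was compared with DESeq2 over 14523 genes with a base mean of at least 10. A p within 1% of theirs was found for 167 genes (1.15%) with the libraries as labelled, and for 14523 genes with the labels of WT replicate 3 and Prdm16 replicate 1 exchanged. The libraries labelled Prdm16 replicate 2 and WT replicate 3 were also alike in the interferon-induced gene Ifit3, with 22.2 and 20.9 CPM against 490 to 767 CPM in the other 3, and Prdm16 replicate 2 held 15 counts of the X-inactivation RNA Xist, while the other 4 held 3483 to 4652. The libraries labelled Prdm16 thus differed in Xist and were not repeats of the same cells. Prdm16, the targeted gene, had 10.6 and 15.3 CPM in the libraries labelled Prdm16 and 16.4, 13.5 and 5.51 CPM in those labelled WT. Its count can include RNA from outside the floxed part, so it does not test the deletion. Libraries are called by their labels throughout, CPM is the count scaled to library size by edgeR, and every fold change is Prdm16 over WT by label unless another grouping is named.

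Promoter sequences are shown for 2 contractile members and 2 pericyte members whose levels moved in opposite ways in 1 library. Each run is the 250 bases before the transcript start used in the RefSeq promoter table (GRCm38.p6), 5′ to 3′ on the strand of the gene. For Acta2, Myl9 and Notch3 that start lies inside the outer bounds of the gene. The Acta2 window lies at chr19:34255374-34255623 on the minus strand, the Myl9 window at chr2:156775214-156775463 on the plus strand, the Rgs5 window at chr1:169655251-169655500 on the plus strand and the Notch3 window at chr17:32166891-32167140 on the minus strand. Capitals mark CArG boxes, also those with 1 C or G among the A and T letters of their centre, the MCAT letters CATTCC, the RBPJ core TGGGAA and the TATA letters TATAAA or TATATA, each searched on both strands.
Acta2: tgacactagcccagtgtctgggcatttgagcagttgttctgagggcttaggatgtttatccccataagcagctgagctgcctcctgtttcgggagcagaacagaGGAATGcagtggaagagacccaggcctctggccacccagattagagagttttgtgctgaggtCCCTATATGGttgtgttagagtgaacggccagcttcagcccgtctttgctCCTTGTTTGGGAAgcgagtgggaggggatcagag
Myl9: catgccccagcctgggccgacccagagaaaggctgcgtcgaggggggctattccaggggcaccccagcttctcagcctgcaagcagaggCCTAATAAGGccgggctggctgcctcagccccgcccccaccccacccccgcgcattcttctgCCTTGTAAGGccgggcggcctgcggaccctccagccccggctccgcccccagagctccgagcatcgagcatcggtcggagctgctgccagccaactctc
Rgs5: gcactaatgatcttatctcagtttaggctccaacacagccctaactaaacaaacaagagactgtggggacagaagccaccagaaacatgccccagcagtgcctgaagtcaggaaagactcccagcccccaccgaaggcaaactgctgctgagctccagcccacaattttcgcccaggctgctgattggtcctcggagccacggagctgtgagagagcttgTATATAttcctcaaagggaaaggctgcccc
Notch3: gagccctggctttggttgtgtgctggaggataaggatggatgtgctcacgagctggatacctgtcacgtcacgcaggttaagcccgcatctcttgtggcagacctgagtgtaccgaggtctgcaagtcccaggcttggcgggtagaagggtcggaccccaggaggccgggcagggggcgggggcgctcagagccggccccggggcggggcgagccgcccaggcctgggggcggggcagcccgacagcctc

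The Myl9 window held 1 CArG box, CCTAATAAGG, and 1 with a G in its centre, CCTTGTAAGG. The Acta2 window held 2 of the second kind, CCCTATATGG and CCTTGTTTGG, and 1 MCAT match on the other strand, the letters bound by TEAD factors. The second Acta2 CArG match overlaps the RBPJ core by its last letters. The Rgs5 and Notch3 windows held no CArG box of either kind, and Rgs5 held the letters TATATA 30 bases before its start. The windows of Cnn1, Mcam and Cspg4, not shown, held no match to any of the letters set in capitals. Each of these genes was highest in WT replicate 3, as Acta2 and Myl9 were. Sequence outside the windows was not searched. Tagln, Myh11 and Pdgfrb had no window. No link between promoter letters and RNA level was tested. Over 32851 RefSeq promoter windows of the same length, 1.47% held a CArG box, 7.24% one with a C or G in its centre, 12.6% the MCAT letters, 21.6% the RBPJ core and 15.6% the TATA letters. The GC box GGGCGG, not in capitals, was found in 32.7% of windows, among them those of Myl9, Notch3, Mcam and Cspg4. These matches are letters in a window and describe no binding in these cells.

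By the labels, none of the 9 tested genes passed the test between the genotypes (adjusted p = 0.9996 for each, two-sided quasi-likelihood test of edgeR with Benjamini-Hochberg adjustment). Their log2 fold changes ran from -1.85 for Cnn1 to 0.42 for Notch3, with 6 below 0 and 3 above. The median was -0.08, beside 0.00 over all 15240 genes tested. The count of called genes over the whole table was 0 (0.0% of 15240), with 378 (2.48%) at an unadjusted p under 0.05, of which 0 were members. DESeq2's Wald test called 2 genes (0.0131%) and limma-voom 0, neither a member. In 0 of the 9 members did the 2 genotypes' libraries separate, against 17.8% of all tested genes.

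The library labelled WT replicate 3 was the highest of the 5 for 6 tested members and the lowest for the other 3, so it stood at an end of the range for all 9, where 41.9% of all tested genes had it at an end (18.7% highest, 23.1% lowest). It was at least 2-fold above every other library for Tagln and Cnn1, as it was for 0.276% of all genes. It was at most 0.5 of every other library for Rgs5 and Notch3, as it was for 2.97% of all genes. The members and these limits were described with the values in view, and no test was made of them.

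**Figure D1:**
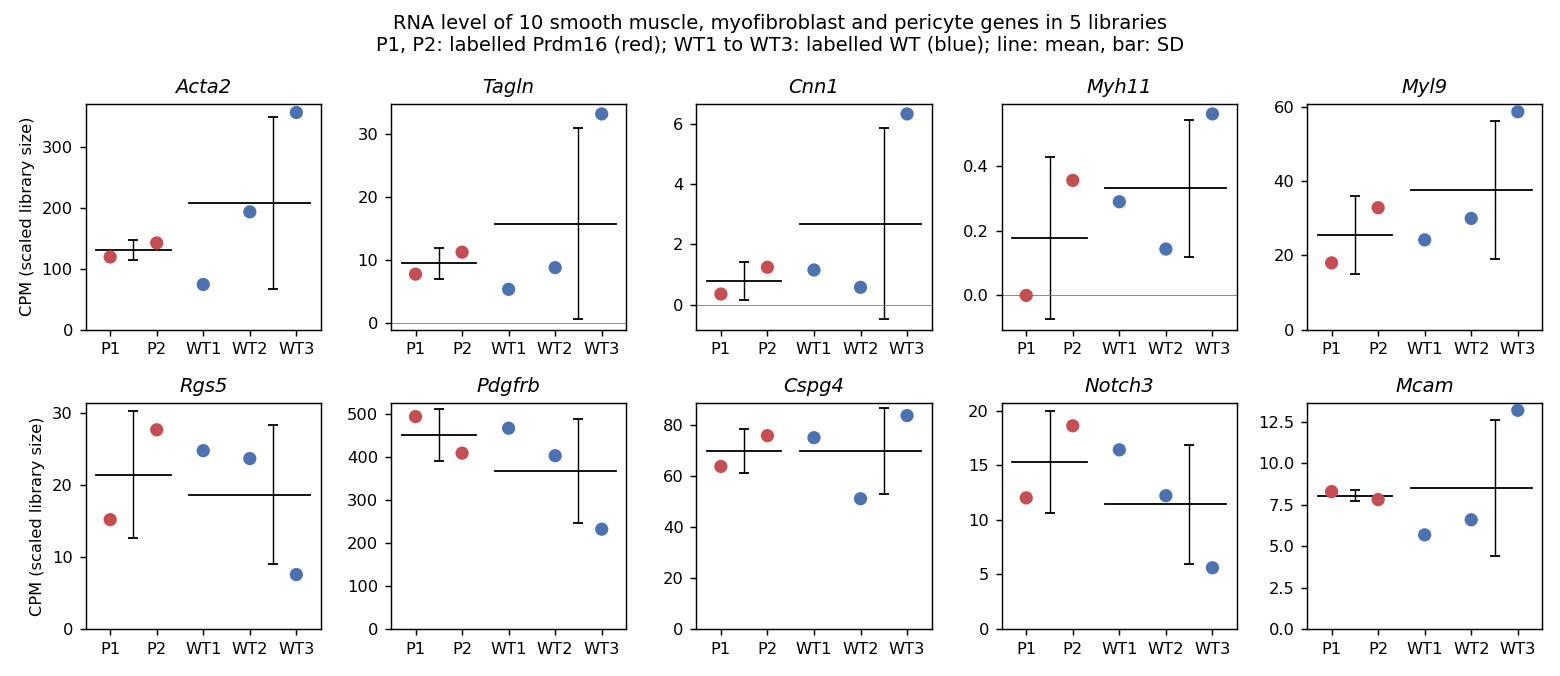
RNA level of the 10 genes in CPM (vertical axis, linear, 1 panel per gene) in the 2 libraries labelled Prdm16 (red, P1 and P2) and the 3 labelled WT (blue, WT1 to WT3). Points are libraries, lines are group means and bars are SD. WT replicate 3 is the highest point for Acta2, Tagln, Cnn1, Myh11, Myl9, Cspg4 and Mcam and the lowest for Rgs5, Pdgfrb and Notch3.

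Acta2 encodes smooth muscle alpha actin, the actin of contractile vessel walls and the usual mark of a myofibroblast (chromosome 19, 34240336 to 34255585, GRCm38). Acta2 stood at 119 and 142 CPM in the Prdm16 libraries, against 73.9, 193 and 356 CPM in those labelled WT, from 768 to 3814 counts a library. The Prdm16 values lay inside the WT range, and WT replicates 1 and 3 were its ends. Acta2 had a log2 fold change of -0.67 (SE 0.64), which was -0.03 without WT replicate 3 and -1.09 (SE 0.32, unadjusted p = 0.0123, adjusted p = 0.999 by edgeR) without WT replicate 1. WT replicate 3 was 1.84-fold above the next library, and the other 4 libraries spanned 2.61-fold among themselves. Actin genes are close to identical in their coding part, so reads of Acta2 may have been split with its kin Actg2, Acta1 and Actc1.

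Tagln encodes transgelin, also called SM22, an actin-binding protein of smooth muscle and a classic SRF target (chromosome 9, 45929628 to 45936058). Tagln was at 7.7 and 11.2 CPM in the Prdm16 libraries, against 5.29, 8.74 and 33.2 CPM in those labelled WT, from 55 to 356 counts. Only WT replicate 3 stood out, at 2.97-fold above the next library. Tagln had a log2 fold change of -0.75 (SE 0.80), and it turned to 0.43 without WT replicate 3. The gene overlaps Pcsk7 (45906447 to 45932107), a proprotein convertase gene. The SMART-seq2 method named in the labels does not mark strand, so reads of the shared stretch cannot be told apart. Pcsk7 had 31.8 and 34.8 CPM in Prdm16 and 32.2, 33.4 and 38.4 CPM in WT, a narrower spread than that of Tagln.

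Cnn1 encodes calponin 1, which binds actin and restrains myosin in differentiated smooth muscle (chromosome 9, 22099221 to 22109221). It had few counts, 3 and 7 in the libraries labelled Prdm16 and 12, 4 and 68 counts in those labelled WT. Its level was 0.35 and 1.24 CPM in Prdm16, against 1.15, 0.573 and 6.34 CPM in WT. WT replicate 3 alone was raised, 5.1-fold above the next library, while the other 4 held 3 to 12 counts. Its log2 fold change of -1.85 (SE 1.16) was -0.24 without that library, and ran to -2.92 when another was left out. Myh11, the smooth muscle myosin heavy chain and the strictest marker of mature smooth muscle (chromosome 16, 14194527 to 14292188), had 0 and 2 counts in Prdm16 and 3, 1 and 6 counts in WT, too few to test. The strictest contractile marker was thus near 0 in every library, whatever the level of Acta2.

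Myl9 encodes the regulatory light chain of smooth muscle and non-muscle myosin (chromosome 2, 156775408 to 156781657). Myl9 was at 18 and 32.9 CPM in the Prdm16 libraries, against 24.2, 30 and 58.8 CPM in those labelled WT, from 154 to 630 counts. WT replicate 3 was 1.79-fold above the next library and the remaining values overlapped between the genotypes. Myl9 had a log2 fold change of -0.58 (SE 0.44), and -0.10 without WT replicate 3 and -1.07 without Prdm16 replicate 2. All 5 contractile members had their highest level in WT replicate 3, though for Myh11 this rests on 0 to 6 counts a library.

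Rgs5 encodes a regulator of G protein signalling that marks pericytes (chromosome 1, 169655501 to 169695813). Rgs5 was at 15.2 and 27.7 CPM in the Prdm16 libraries, against 24.8, 23.7 and 7.56 CPM in those labelled WT, from 81 to 258 counts. Here WT replicate 3 was the low library, and the library labelled Prdm16 replicate 1 was next. Rgs5 had a log2 fold change of 0.20 (SE 0.53), which was below 0 in 2 of the fits that left out a library, at -0.19 with WT replicate 3 dropped and -0.30 with Prdm16 replicate 2 dropped.

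Notch3 encodes the Notch receptor of mural cells (chromosome 17, 32120820 to 32166896). Notch3 was at 12 and 18.6 CPM in the Prdm16 libraries, against 16.4, 12.2 and 5.6 CPM in those labelled WT, from 60 to 171 counts. Its order over the libraries was close to that of Rgs5, with WT replicate 3 lowest and Prdm16 replicate 2 highest. Notch3 overlaps the long non-coding RNA genes Gm38585 and Gm41568, which have no counts under these symbols. Reads of a shared stretch cannot be told apart here either. Notch3 had a log2 fold change of 0.42 (SE 0.47), and 0.09 without WT replicate 3 and 0.78 without WT replicate 1.

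Pdgfrb encodes the beta receptor for platelet-derived growth factor, which recruits pericytes and is also present on fibroblasts (chromosome 18, 61045127 to 61085067). It was the most counted member, with 2305 to 4858 counts a library. Its level was 494 and 409 CPM in the libraries labelled Prdm16, against 467, 403 and 232 CPM in those labelled WT. The other 4 libraries lay within 1.23-fold of each other and WT replicate 3 was at 0.575 of the lowest of them. Pdgfrb had a log2 fold change of 0.30 (SE 0.29), and 0.05 without WT replicate 3 and 0.50 without WT replicate 1.

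Cspg4 encodes the proteoglycan NG2 of pericytes (chromosome 9, 56865104 to 56899870). It was the steadiest member, with 63.9 and 76.0 CPM in the libraries labelled Prdm16, against 75.2, 51.2 and 83.9 CPM in those labelled WT. Cspg4 had a log2 fold change of -0.01 (SE 0.26). Mcam encodes the adhesion molecule CD146 of pericytes, smooth muscle and endothelium (chromosome 9, 44134658 to 44142727). It had 8.29 and 7.81 CPM in Prdm16, against 5.68, 6.59 and 13.2 CPM in WT. Mcam was thus a pericyte marker that followed the contractile genes in WT replicate 3, and its log2 fold change of -0.08 (SE 0.45) turned to 0.40 without that library.

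**Figure D2:**
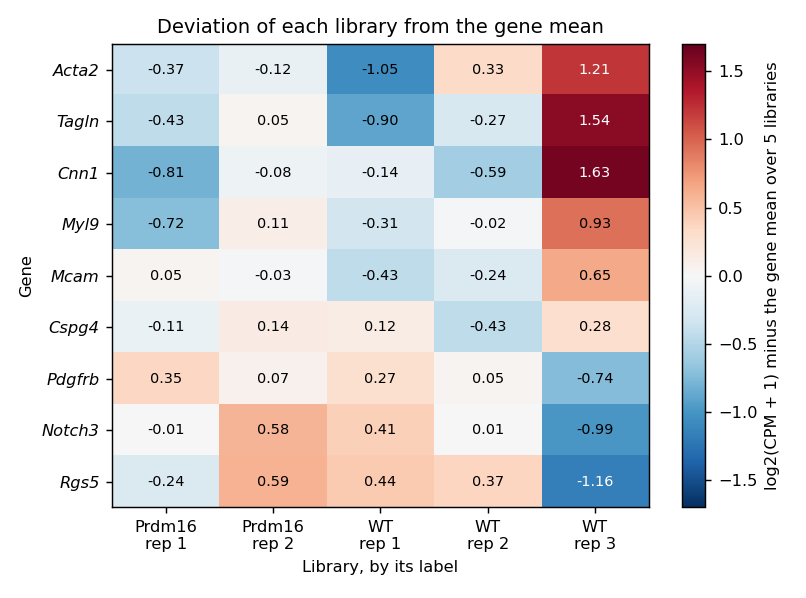
Each cell is log2(CPM + 1) of a gene (rows) in a library (columns) minus the mean of that gene over the 5 libraries. In WT replicate 3 the values run from 1.63 for Cnn1 down to 0.28 for Cspg4 among the 6 genes above their mean, and from -0.74 for Pdgfrb to -1.16 for Rgs5 among the 3 below.

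Grouped by known role, the 5 contractile members (Acta2, Tagln, Cnn1, Myh11 and Myl9) and the 5 mural receptors and regulators (Rgs5, Pdgfrb, Cspg4, Notch3 and Mcam) can be set against each other within a library, which needs no scaling. The ratio of contractile to mural counts was 0.244 and 0.347 in the libraries labelled Prdm16, against 0.178, 0.468 and 1.33 in those labelled WT. WT replicate 3 had the highest ratio and WT replicate 1 the lowest. Acta2 gave 70.5% to 83.0% of the contractile counts and Pdgfrb 67.8% to 83.3% of the mural counts, so the ratio is mainly that of these 2 genes. Acta2 counts per Pdgfrb count were 0.241 and 0.346 in Prdm16, against 0.158, 0.479 and 1.53 in WT. Tagln showed the same order at its ends, with 1.56 and 2.73 counts per 100 Pdgfrb counts in Prdm16, against 1.13, 2.17 and 14.3 in WT. In bulk RNA, fewer cells of a type and less RNA per cell cannot be told apart.

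Likeness between genes was measured as the root mean square difference of log2(CPM + 1), centred per gene, over the 5 libraries. Of the members, Rgs5 and Notch3 were the closest pair (0.206), then Notch3 and Pdgfrb (0.307), Acta2 and Tagln (0.324), and Cspg4 and Mcam (0.326). The nearest member of Cnn1 was Tagln (0.414) and that of Myl9 was Mcam (0.389). The candidates were 9347 tested genes that averaged 10 CPM or more, with symbols of Gm plus digits, Rik symbols and unnamed IDs left out. Among them Galnt18 was nearest to Acta2 (0.129). Galnt18 had 20.3 and 21.1 CPM in the libraries labelled Prdm16 and 14.3, 32.5 and 60.6 CPM in those labelled WT. Tagln, Msln, which encodes mesothelin (0.338), Pdgfd, which encodes a ligand of the Pdgfrb receptor (0.343), and Hs6st2 (0.368) came next. Nearest to Rgs5 was Selenbp1 (0.072), with 11.1 and 18.8 CPM in Prdm16 and 18.8, 16.1 and 4.76 CPM in WT. Fzd1, a Wnt receptor gene (0.121), Dapk1 (0.138), the guidance ligand gene Slit3 (0.141) and Tmem119 (0.158) followed. The measure rests on 5 libraries. In Acta2 the libraries farthest from its mean were WT replicate 3 (1.21) and WT replicate 1 (-1.05), and in Rgs5 WT replicate 3 (-1.16).

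The authors' deposited table, which rests on the exchanged grouping, called 1 of the 10 members. Its rule for a call is an adjusted p under 0.1 and a log2 fold change past 0.5. Tagln was listed as upregulated in the authors' deposited table, with a log2 fold change of 1.32 (SE 0.52) and an adjusted p of 0.0168, where 1.97% of the 6237 genes with an adjusted p were listed so. In the authors' deposited table the other contractile members were not called, with log2 fold changes of 1.46 for Cnn1 (adjusted p = 0.245), 0.63 for Myl9 (0.538), 0.49 for Acta2 (0.341) and 0.03 for Myh11 (none given). The authors' deposited table gave the mural members -0.29 for Pdgfrb (0.388), -0.06 for Rgs5 (0.939), -0.04 for Notch3 (none given), 0.15 for Cspg4 (0.968) and 0.18 for Mcam (0.552). The authors' adjusted values did not follow the order of their unadjusted ones. Myl9 had a smaller unadjusted value than Acta2 and Pdgfrb, yet a larger adjusted one. The authors' adjusted values therefore do not rank the members and are not on one scale with the Benjamini-Hochberg values of edgeR.

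The exchanged grouping was fitted with edgeR to see which library the authors' log2 fold changes rest on. For every tested member edgeR gave a log2 fold change of larger size than the authors' table. Acta2 had 0.96 by edgeR against 0.49 there, and Mcam 0.63 against 0.18. The log2 fold changes of the authors and of edgeR are thus not on the same scale, and their sizes are not compared. With WT replicate 3 and Prdm16 replicate 1 exchanged, edgeR called 182 genes (1.19%) and 0 members, and Tagln had a log2 fold change of 1.64 (adjusted p = 0.188). Without WT replicate 3 in that grouping, Tagln was at 0.63 (adjusted p = 0.828), Acta2 at 0.14 and Cnn1 at 0.79, with 113 genes called (0.741%) and 0 members. Without Prdm16 replicate 2, so that WT replicate 3 stood alone against the other 3, Tagln was at 2.20 (adjusted p = 0.017) and was the 1 member called among 251 genes (1.65%). That fit assumes that a lone library varies like the others. With WT replicate 3 and Prdm16 replicate 1 both left out, 59 genes were called (0.387%) and 0 members, and Tagln was at 0.66 and Acta2 at 0.07. The library labelled Prdm16 replicate 2, which both groupings place with Prdm16, had Tagln at 11.2 CPM, the second highest value of the 5. Its Acta2, at 142 CPM, lay below WT replicate 2.

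**Figure D3:**
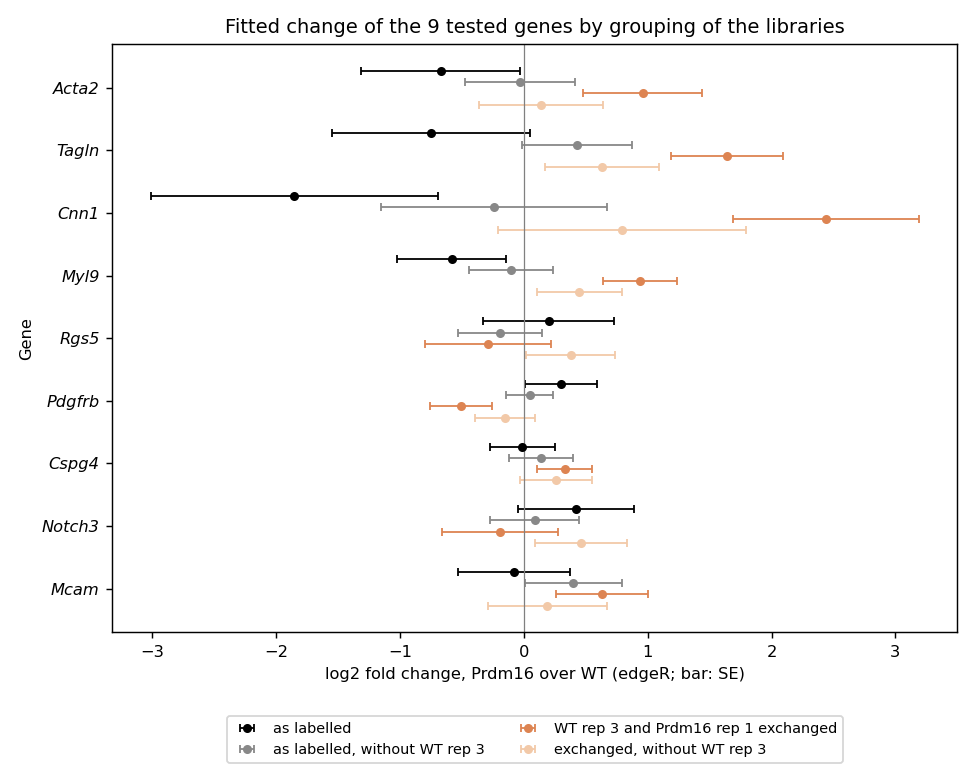
Points are fitted log2 fold changes of Prdm16 over WT (horizontal axis, edgeR) with SE as bars for the 9 tested genes, in 4 groupings of the libraries. Tagln lies at -0.75 as labelled, 0.43 without WT replicate 3, 1.64 with 2 labels exchanged and 0.63 with them exchanged and WT replicate 3 left out.

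The other contractile genes were followed as a list of 23, of which 21 were tested, 0 were called, 13 had positive and 8 negative log2 fold changes, and the median was 0.05. WT replicate 3 was highest for 9 of the 21 and lowest for 2. Actg2, the enteric smooth muscle actin, was also highest in WT replicate 3, with 1.63 and 2.31 CPM in the libraries labelled Prdm16 and 1.64, 4.16 and 9.42 CPM in those labelled WT (log2 fold change -1.38, unadjusted p = 0.107). Myl6, the essential myosin light chain, had 436 and 462 CPM in Prdm16, below the 538, 535 and 551 CPM of WT (log2 fold change -0.27). The integrin gene Itga8 and its ligand gene Npnt had log2 fold changes of 0.49 and 0.43.

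The RNA of regulators of the contractile genes was followed next. Of 25 regulator genes 22 were tested and 0 called, with a median log2 fold change of -0.06, and WT replicate 3 was highest for 5 and lowest for 8. Srf had 16.3 and 21.8 CPM in the libraries labelled Prdm16 and 15.5, 14.8 and 19.8 CPM in those labelled WT. Myocd, the smooth muscle cofactor of SRF, was at 0 in 4 libraries and at 0.117 CPM in Prdm16 replicate 1. Klf4, which restrains contractile genes in cultured smooth muscle, had 8.87 and 20.1 CPM in Prdm16 and 12, 14.2 and 15.7 CPM in WT. The genes with the smallest p were Tbx18 (-0.52), a transcription factor gene of mural cells, Fhl1 (-0.69), Tead2 (-0.74) and Foxo4 (-0.47). Fhl1, a LIM-domain gene, had 11.7 CPM in both Prdm16 libraries and 15.2, 10.8 and 30.4 CPM in WT, again highest in WT replicate 3.

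Partners of the Notch and Pdgfrb receptors were followed as lists. Of 15 other Notch pathway genes 9 were tested and 0 called, with a median of -0.21. The Notch target Hes1 had 9.1 and 10.1 CPM in the libraries labelled Prdm16, below the 18.1, 12.9 and 15 CPM of WT (log2 fold change -0.68, unadjusted p = 0.0585). Notch4 (0.85) and the ligand Dll1 (0.81) had positive values, and Rbpj, the DNA-binding partner of Notch, had 0.22. Of the 5 other genes of the platelet-derived growth factor family 4 were tested and 0 called. Pdgfra, the alpha receptor that defines FAPs and the locus of the Cre, had 761 and 587 CPM in Prdm16 and 822, 950 and 471 CPM in WT, so it was lowest in WT replicate 3 as Pdgfrb was. Pdgfc (0.54), Pdgfa (0.15) and Pdgfd (-0.13) were the ligands tested, and Pdgfb, the main ligand of Pdgfrb, had at most 0.71 CPM in any library.

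Matrix genes of myofibroblasts had another order over the libraries than Acta2. Of 23 genes, all tested and 0 called, 16 had positive log2 fold changes and the median was 0.25. WT replicate 3 was highest for 1 of them and lowest for 11. Ltbp2, which binds elastic fibres, had 185 and 329 CPM in the libraries labelled Prdm16, above the 156, 148 and 151 CPM of WT (log2 fold change 0.76, unadjusted p = 0.0154). Fn1, fibronectin, had 7860 and 11500 CPM in Prdm16 and 7000, 7910 and 4470 CPM in WT (0.58). Lox, which cross-links collagen, was at 0.70, Col8a1 at 0.29 and Tgfb1 at -0.05.

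Marker lists of other cells went different ways in WT replicate 3, and their part in the result was not tested. FAP markers (12 genes) summed to 6780 and 6540 CPM in the libraries labelled Prdm16 and to 6820, 7310 and 3600 CPM in those labelled WT, and WT replicate 3 was lowest for 9 of the 11 tested. Col1a1, Col3a1 and Ly6a gave the most reads among them, with Ly6a, which encodes the surface protein Sca-1 of FAPs, at 1210 and 772 CPM in Prdm16 and 1370, 1700 and 760 CPM in WT. Col3a1 was at 1720 and 1420 CPM in Prdm16 and 1650, 1700 and 584 CPM in WT, and Col1a1 at 1600 and 2300 CPM in Prdm16 against 1680, 1710 and 1150 CPM in WT. Muscle and myoblast markers (15 genes) summed to 929 and 839 CPM in Prdm16 and to 320, 463 and 857 CPM in WT, so they were high in WT replicate 3 and in both Prdm16 libraries, which the contractile members were not. Acta1 had 178 and 189 CPM in Prdm16 and 51.8, 111 and 125 CPM in WT, with Mylpf and Myh3 next by CPM, which is not scaled to length. Col1a1 and Col3a1 also stand in the matrix list, and Des in both the contractile and the muscle list.

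A further 17 pericyte and smooth muscle markers, of which 9 were tested and 0 called, summed to 192 and 255 CPM in the libraries labelled Prdm16 and to 224, 205 and 95.4 CPM in those labelled WT. WT replicate 3 was lowest for 5 of the 9. Its low sum came with Ednra, an endothelin receptor (80.9 and 30.9 CPM in Prdm16, against 84.0, 49.3 and 17.9 CPM in WT), and Steap4 (28.5 and 29.1 CPM in Prdm16, against 35.6, 61.6 and 3.36 CPM in WT). Ndufa4l2 had 7.0 and 122 CPM in Prdm16 and 18.3, 45.9 and 24.8 CPM in WT. The 8 genes of this list that were too low to test included Kcnj8, at no more than 0.289 CPM in any library, Higd1b, at no more than 0.43 CPM, and Vtn, at no more than 4.8 CPM. Other pericyte genes gave more reads, with Abcc9 at 3.39 and 1.95 CPM in Prdm16 and 3.75, 1.29 and 1.31 CPM in WT, and Cox4i2 at 1.75 and 9.41 CPM in Prdm16 and 3.75, 1.86 and 3.17 CPM in WT. The pericyte markers were thus mixed, some near 0 and others, Rgs5 among them, well detected, while Myh11 and Myocd, which mark mature smooth muscle, were near 0. Acta2, Pdgfrb and Cspg4 are known to be expressed by cultured fibroblasts too.

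**Figure D4:**
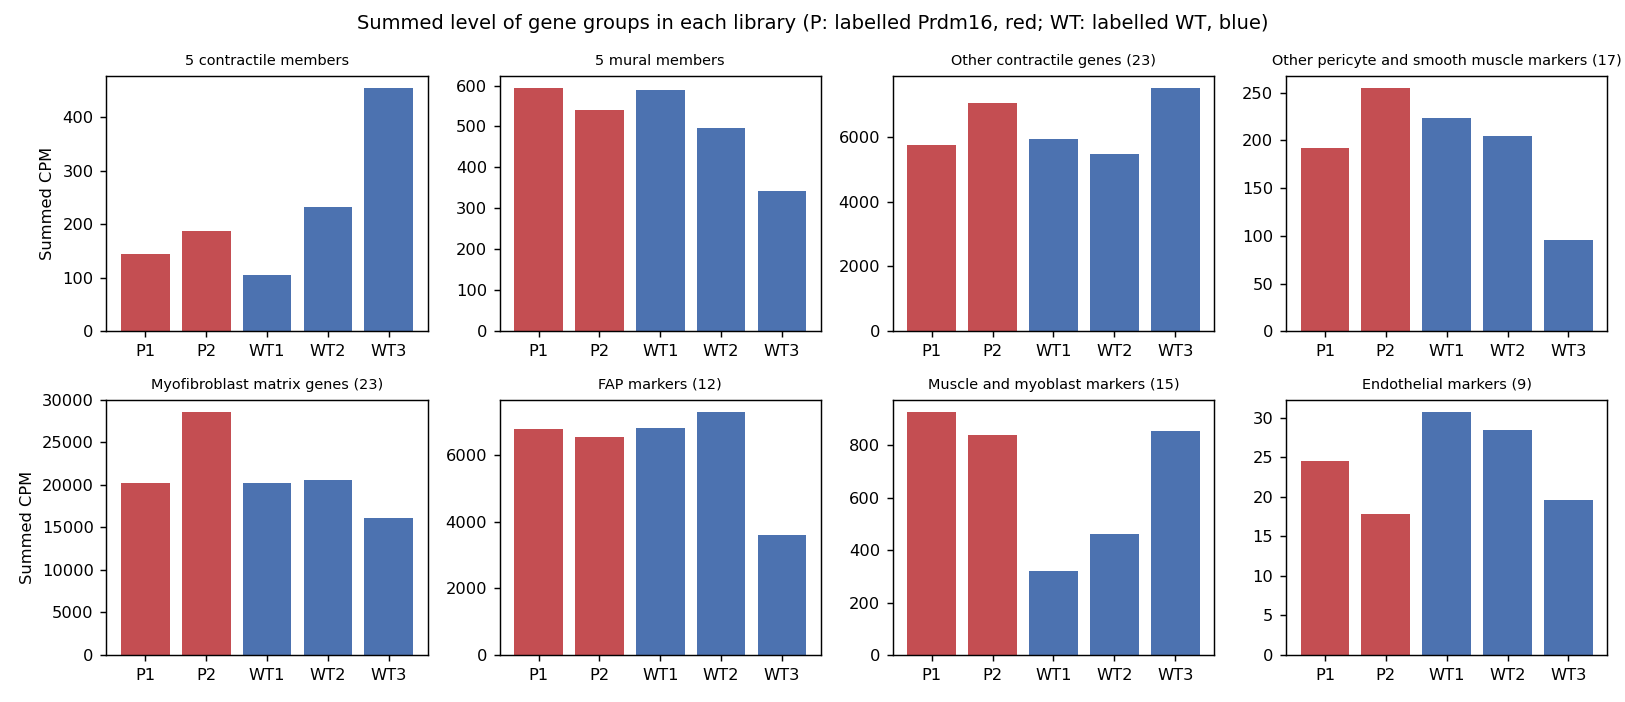
Bars are the summed CPM of a gene group in each library (vertical axes from 0), with libraries labelled Prdm16 in red (P1 and P2) and WT in blue (WT1 to WT3), and the number of genes in brackets. In WT replicate 3 the contractile members reach 455 CPM, against 105 to 232 CPM elsewhere, while FAP markers are at 3600 CPM.

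Lists for other cell types were read in the same way. Endothelial markers (9 genes) summed to 24.5 and 17.8 CPM in the libraries labelled Prdm16 and to 30.8, 28.5 and 19.6 CPM in those labelled WT, led by Egfl7, Cdh5 and Emcn, with Tie1 at 0 in all 5. Macrophage markers (8 genes) summed to 23.8 and 32.7 CPM in Prdm16 and to 24.7, 19.9 and 19.3 CPM in WT, led by Cd14, then Cd68 and Csf1r, with Adgre1 and C1qa at 0 in all 5. Tenocyte markers (6 genes) summed to 90.8 and 183 CPM in Prdm16 and to 54.4, 57.0 and 47.2 CPM in WT, led by Thbs4, Mkx and Comp, and were thus highest in Prdm16 replicate 2 and not in WT replicate 3. Thbs4, which encodes a matrix protein of tendon, had 66.2 and 125 CPM in Prdm16, above the 37.1, 35.1 and 29.9 CPM of WT, with a log2 fold change of 1.49 (SE 0.29, unadjusted p = 0.000859, adjusted p = 0.9996 by edgeR).

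The chromatin files were read at the members to ask whether these genes lie in repressed or lamina domains. No part of any of the 10 gene bodies lay in an H3K9me2 domain in any of the 3 Prdm16 or 3 WT libraries, nor in a LaminB1 domain in either library. Among 13573 located genes, 2.62%, 3.39% and 2.94% had at least 0.5 of their body in an H3K9me2 domain in the Prdm16 libraries and 4.80%, 2.73% and 3.71% in the WT libraries, and 3.82% to 6.09% had any part in one over the 6 libraries. For LaminB1 the shares with at least 0.5 of the body were 0.604% in Prdm16 and 1.5% in WT, and those with any part 0.869% in Prdm16 and 2.18% in WT. Acta2 lay 121 kb to 2580 kb from the nearest H3K9me2 domain over the 6 libraries, and Tagln 177 kb to 459 kb. Myl9 was steady, at 2090 kb to 2100 kb. Cspg4 was the farthest of the members from LaminB1, at 8750 kb in Prdm16 and 7440 kb in WT, and Acta2 the nearest, at 272 kb in Prdm16 and 300 kb in WT.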

How the data were processed

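Per the labels' protocols, RNA libraries were made by SMART-seq2 from polyadenylated RNA of cultured FAPs. The submitters' processing notes name STAR 2.7, featureCounts, DESeq2 1.20 and Bowtie 1.2.2 and the builds mm10, dm6 and GRCm38, with no role given for each. The deposited count table holds raw counts of 55341 genes. The authors' normalized signal equals those counts divided by 1 size factor per library, to within 0.0005. The authors' comparison table holds base means, log2 fold changes with standard errors, p-values and adjusted p-values. The authors' score per domain was used in 1 alternative, which left out the domains with the lowest scores. The sources used here do not give how adjusted p-values and scores were made.

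The fit used edgeR 4.0.16 (R 4.3.3): default expression filter (15240 genes), trimmed mean of M-values, robust quasi-likelihood, two-sided, Benjamini-Hochberg adjustment, threshold 0.05. Standard deviations are over n = 2 Prdm16 and n = 3 WT libraries. DESeq2 1.42.0 and limma 3.58.1 were alternatives, and refits without a library kept the 15240 genes. The fit was tested on simulated data. Files were read and drawn with Python 3.11.15, pandas 2.3.3 and matplotlib 3.10.9. Gene positions and promoters are from RefSeq (GRCm38.p6), with promoter windows for 7 of the 10 members. Transcript lengths were not used here, so an order of genes by CPM or counts is one of reads and not of transcripts.

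Members and lists were chosen with earlier results of these data known. Named genes are all members, up to 4 per context list by smallest p, Srf, Myocd, Klf4, Tgfb1, Pdgfra and Prdm16, the 3 highest genes per cell type list, and the 5 genes nearest to Acta2 and to Rgs5. Other genes were named after their values were seen. Results of 2 of the lists are not reported here.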

Additional observations from a re-analysis of the deposited data

How the results depend on the processing

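The count of members called stayed at 0 under every alternative but 1, and was 1 (Tagln) when, in a fit chosen after seeing the data, 2 labels were exchanged and Prdm16 replicate 2 was left out. Genes called over the table were 0, against 25 with no filter on low counts, 2 with DESeq2, 1 with upper-quartile scaling, 1 with a replicate block, 0 to 1 when 1 library was left out, 59 without both doubted libraries, 182 with labels exchanged, and, chosen after seeing the data, 113 and 251 with labels exchanged and WT replicate 3 or Prdm16 replicate 2 left out. The members' median log2 fold change of -0.08 ran from -0.32 to 0.05 when 1 library was left out. It was 0.07 with a replicate block. Replicate 3 exists only in WT, so that block takes up WT replicate 3, which then adds nothing to the fold change. The median was 0.26 without both doubted libraries, 0.63 with labels exchanged and 0.38 and 0.94 in the 2 added fits.

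Directions of single members turned in many fits, none of them past the threshold except Tagln at 2.20. With the replicate block Acta2 was at 0.12, Tagln 0.45, Rgs5 -0.24, Cspg4 0.16 and Mcam 0.40. WT replicate 3 adds nothing to these fold changes, so they are no separate check on the fit without that library. In that fit Acta2 was at -0.03, Tagln 0.43, Rgs5 -0.19, Cspg4 0.14 and Mcam 0.40. Without both doubted libraries Acta2 was at 0.07, Tagln 0.66, Cnn1 0.46, Myl9 0.26, Pdgfrb -0.11, Cspg4 0.24 and Mcam 0.33. With labels exchanged they were Acta2 0.96, Tagln 1.64, Cnn1 2.44, Myl9 0.94, Rgs5 -0.29, Pdgfrb -0.51, Cspg4 0.33, Notch3 -0.19 and Mcam 0.63. With WT replicate 3 also left out they were Acta2 0.14, Tagln 0.63, Cnn1 0.79, Myl9 0.45, Pdgfrb -0.15, Cspg4 0.26 and Mcam 0.19. With Prdm16 replicate 2 left out instead they were Acta2 1.47, Tagln 2.20, Cnn1 3.13, Myl9 1.29, Rgs5 -1.49, Pdgfrb -0.97, Cspg4 0.40, Notch3 -1.28 and Mcam 0.94. Cspg4 turned to 0.03 with upper-quartile scaling and Mcam to 0.01 with limma-voom. Leaving out 1 library gave ranges of -1.09 to -0.03 for Acta2, -2.92 to -0.24 for Cnn1, -1.07 to -0.10 for Myl9, 0.05 to 0.50 for Pdgfrb, 0.08 to 0.78 for Notch3, -1.18 to 0.43 for Tagln, -0.30 to 0.56 for Rgs5, -0.19 to 0.14 for Cspg4 and -0.32 to 0.40 for Mcam. H3K9me2 cover of the members was 0 under each alternative.

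Replicate numbers were not taken as pairs, as the labels name no shared mouse or day. Deviations from the group means correlated at 0.215 for replicate 1 and -0.227 for replicate 2 over 15240 genes. The 2 Prdm16 libraries deviate from their own mean by equal and opposite amounts. These correlations are therefore not separate checks and cannot decide on pairing. Depth limits Myh11, which had 0 to 6 counts a library and was not tested.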
